A study of Homo sapiens with 4 samples.

Results

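The MYC, MAX and MXD network is a set of 10 transcription factor genes, namely MYC, MYCN, MYCL, MAX, MXD1, MXD3, MXD4, MXI1, MNT and MGA. Its members here were the probe sets of an Affymetrix U133 Plus 2.0 array whose annotation names a single one of these genes, which gave 29 of the 54613 probe sets that are not array controls. They covered 9 of the 19775 genes that single-symbol probe sets name: MYCN had 10 probe sets, MAX 5, MGA 4, MXD1 3, MYCL and MNT 2 each, and MYC, MXD3 and MXI1 1 each. MXD4 had 0, because its 3 probe sets are annotated to a second gene as well, and its expression is not analysed here. The rule reads the annotation alone.

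RNA came from BT474, an established line of human breast cancer cells in which ERBB2 is amplified. All cells were grown in DMEM, received fresh medium with vehicle or with 0.5 mM AICAR, and were harvested after 24 h. AICAR is a nucleoside that cells phosphorylate to ZMP, which imitates AMP and switches on AMPK, the kinase that senses energy shortage. Each group had 2 arrays, 4 in all, and the labels do not say whether replicates were separate cultures. The p-values therefore measure only how far these samples spread, which may be technical.

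MYC, MYCN and MYCL are basic helix-loop-helix leucine zipper proteins that bind DNA only as dimers with MAX, and the dimers recognise the E-box hexamer CACGTG and raise transcription of genes for ribosomes, metabolism and cell division. The MXD proteins, MXI1, MNT and MGA compete for the same partner and the same hexamer and repress transcription, most of them by recruiting SIN3 and histone deacetylases, and MGA through a variant polycomb complex. In breast cancer MYC is a frequently amplified oncogene, and MYCN and MYCL are better known from neural and small cell lung tumours.

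The hexamer itself was found in the RefSeq promoter windows (GRCh38.p14) of MNT and of 3 partner or target genes that passed the test. Their stretches are given because these are the letters that all dimers of the network compete for. Each line gives the stretch 5′ to 3′ on the gene's strand, with the hexamer in capitals; the hexamer reads the same on both strands.
MNT, chr17:2401221-2401280, minus strand, hexamer beginning 193 bases before the start site: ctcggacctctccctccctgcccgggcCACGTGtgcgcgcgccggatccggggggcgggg
RBBP4, chr1:32650958-32651003, plus strand, 237 bases before the start site: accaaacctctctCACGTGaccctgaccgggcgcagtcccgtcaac
MCM7, chr7:100101398-100101449, minus strand, 25 bases before the start site: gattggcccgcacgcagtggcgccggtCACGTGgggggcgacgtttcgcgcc
CCNG2, chr4:77157150-77157206, plus strand, 30 bases before the start site: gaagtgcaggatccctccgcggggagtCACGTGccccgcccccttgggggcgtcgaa
Over the 250 bases before each start site, CACGTG occurred in 2 of 14 windows of 9 member genes, those of MNT and MXD4, against 6.34% of 35116 windows of all genes. These 9 genes include MXD4 and leave out MYC, whose promoter was not searched. Of the 10 partner and target genes that passed the test, 6 had a window in the table, and 3 of them held the hexamer. These were RBBP4 in 1 of 2 windows, MCM7 in 1 of 3 and CCNG2 in its only one. Among all 27305 genes with a window, 7.73% held it. In the gene lists below from which the 6 genes came, the share was mostly higher. It ran from 8.33% of genes (corepressors) to 27.8% (translation and chaperone targets). No test of these shares was made. A match is a description of these letters and not a binding site.

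AICAR against vehicle showed no member of the network past the threshold, and the values nearest to it were in the MYC family. The MYC probe set read 1.38-fold higher with AICAR and the brightest MYCN probe set 1.54-fold lower, each with an adjusted p just over 0.05. The probe sets of MAX, of the MXD proteins, MXI1 and MNT, and of MGA had small differences, except where the AICAR arrays themselves disagreed. RNA was pooled over all cells of a sample, so fewer cells expressing a gene and less RNA per cell cannot be told apart. Differences are AICAR minus vehicle on the log2 scale of the deposited values, tested with limma over all 54613 probe sets and called at a Benjamini-Hochberg adjusted p under 0.05, two-sided. With 2 arrays against 2, an exact permutation test of 1 probe set has a smallest p of 0.333, and no such test was made.

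Of the 29 probe sets 0 were called in either direction by limma, where 1.49% of the whole table was called (0.599% higher and 0.888% lower). Before adjustment, 3 of 29 had a p under 0.05, or 10.3%, against 16.1% of the table. The AICAR and vehicle arrays did not overlap in 14 of 29, with 8 higher and 6 lower, against 46.9% of the table (23.6% higher and 23.3% lower). These shares lay near or below those of the table as a whole. The median difference of the network was 0.06, against 0.01 over all probe sets, and the median absolute difference was 0.09 against 0.11. Leaving out MYCN, 19 probe sets had a median difference of -0.0064, with 9 positive and 10 negative.

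**Figure D1:**
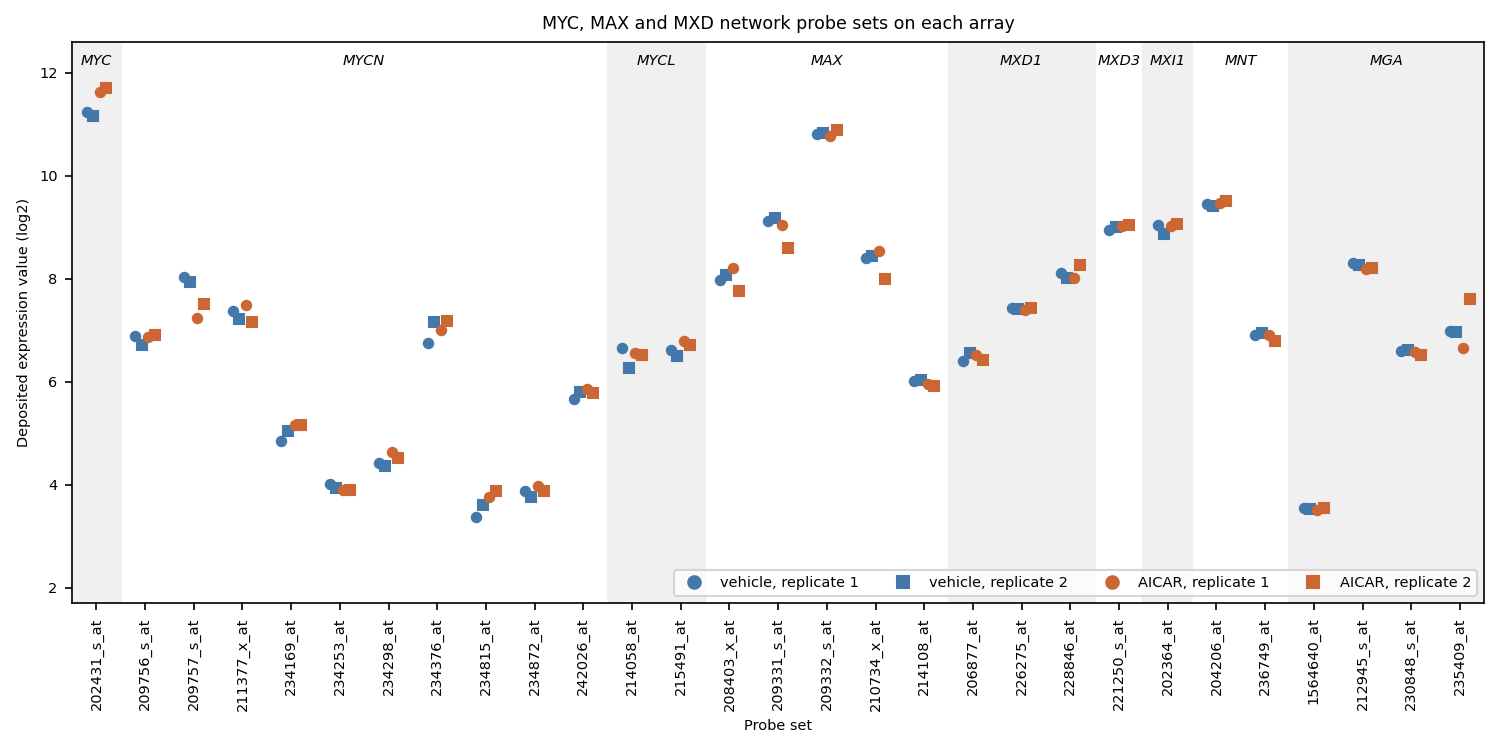
Deposited log2 expression value (y axis) of each of the 29 probe sets (x axis, grouped by gene) on the 2 vehicle arrays (blue) and the 2 AICAR arrays (orange), with circles for replicate 1 and squares for replicate 2. The AICAR points of MYC lie above and those of MYCN 209757_s_at below both vehicle points, while AICAR replicate 2 stands apart from the other 3 arrays for several MAX probe sets and for MGA 235409_at.

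MYC encodes the family member found in most dividing cells. Its only probe set, 202431_s_at, read 11.23 and 11.16 on the vehicle arrays and 11.63 and 11.69 on the AICAR arrays. Both AICAR arrays lay above both vehicle arrays, and the gap between groups was several times the gap within either pair. The mean went from 11.20 ± 0.05 (log2, SD, n = 2) to 11.66 ± 0.05, a difference of 0.46 (SE 0.0887, 95% confidence interval 0.25 to 0.67, limma adjusted p = 0.0607). On the linear scale the interval ran from 1.19-fold to 1.59-fold. An absolute difference at least as large was found in 3.58% of the table.

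Whether MYC counted as called depended on how many probe sets shared the adjustment and on the variance model. Its adjusted p was 0.0412 when probe sets below the 30th percentile of means were left out, 0.0498 when only single-symbol probe sets were tested and 0.000527 with trended, robust variances. It was 0.0504 after quantile normalization and 0.0650 after median centring, and 0.172 to 0.295 without any 1 array. The difference itself stayed between 0.42 and 0.50 without any 1 array.

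MYCN, the family member of the developing nervous system, gave probe sets that disagreed. The brightest, 209757_s_at, read 8.04 and 7.94 with vehicle and 7.23 and 7.51 with AICAR. Both AICAR values lay below both vehicle values, although the AICAR pair was 0.28 apart. The difference was -0.62 (SE 0.115, 95% confidence interval -0.90 to -0.35, limma adjusted p = 0.0556), and it passed without the probe sets below the 30th percentile (0.0431), with single-symbol probe sets only (0.0474) and with trended, robust variances (0.00604). Without any 1 array it stayed between -0.76 and -0.48, with adjusted p of 0.136 to 0.336.

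The lower values at that probe set were not shared by the gene's other probe sets, of which 8 had positive and 1 a negative difference. Probe set 209756_s_at read 6.88 and 6.71 with vehicle, then 6.88 and 6.92 with AICAR, and differed by 0.10 (95% confidence interval -0.13 to 0.33). Probe set 211377_x_at read 7.38 and 7.22 against 7.48 and 7.16, a difference of 0.02 (-0.28 to 0.32); the suffix marks probes that can also match other transcripts. For both, the groups overlapped and the intervals leave out the -0.62 of the brightest probe set. Probe set 234376_at differed by 0.13 and 242026_at by 0.09, also with overlapping groups.

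The remaining 5 MYCN probe sets were designed from a single GenBank sequence and all lay below the 30th percentile of probe set means (log2 5.21), so they are close to the floor of the array. Their differences ran from -0.08 to 0.34. The largest belonged to 234815_at, which read 3.37 and 3.60 with vehicle and 3.76 and 3.88 with AICAR (unadjusted p = 0.0184, limma adjusted p = 0.194). Both AICAR values were higher, but at a level that separates little from background. Averaged over its 10 probe sets, MYCN differed by 0.05 (adjusted p = 0.738 in a fit of gene means), against -0.62 at the brightest.

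MYCL, known from small cell lung cancer, had 2 probe sets. Probe set 215491_at read 6.62 and 6.49 with vehicle, and 6.79 and 6.71 with AICAR, which is 0.20 higher (95% confidence interval -0.03 to 0.42, limma adjusted p = 0.371). The groups did not overlap there, but they did at 214058_at, which read 6.65 and 6.26 against 6.55 and 6.51, a difference of 0.07 (-0.25 to 0.39). The vehicle pair of 214058_at was 0.39 apart, more than the difference between groups. Both probe sets lay close to the middle of the table (log2 6.38), where a dim transcript and background are hard to separate.

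**Figure D2:**
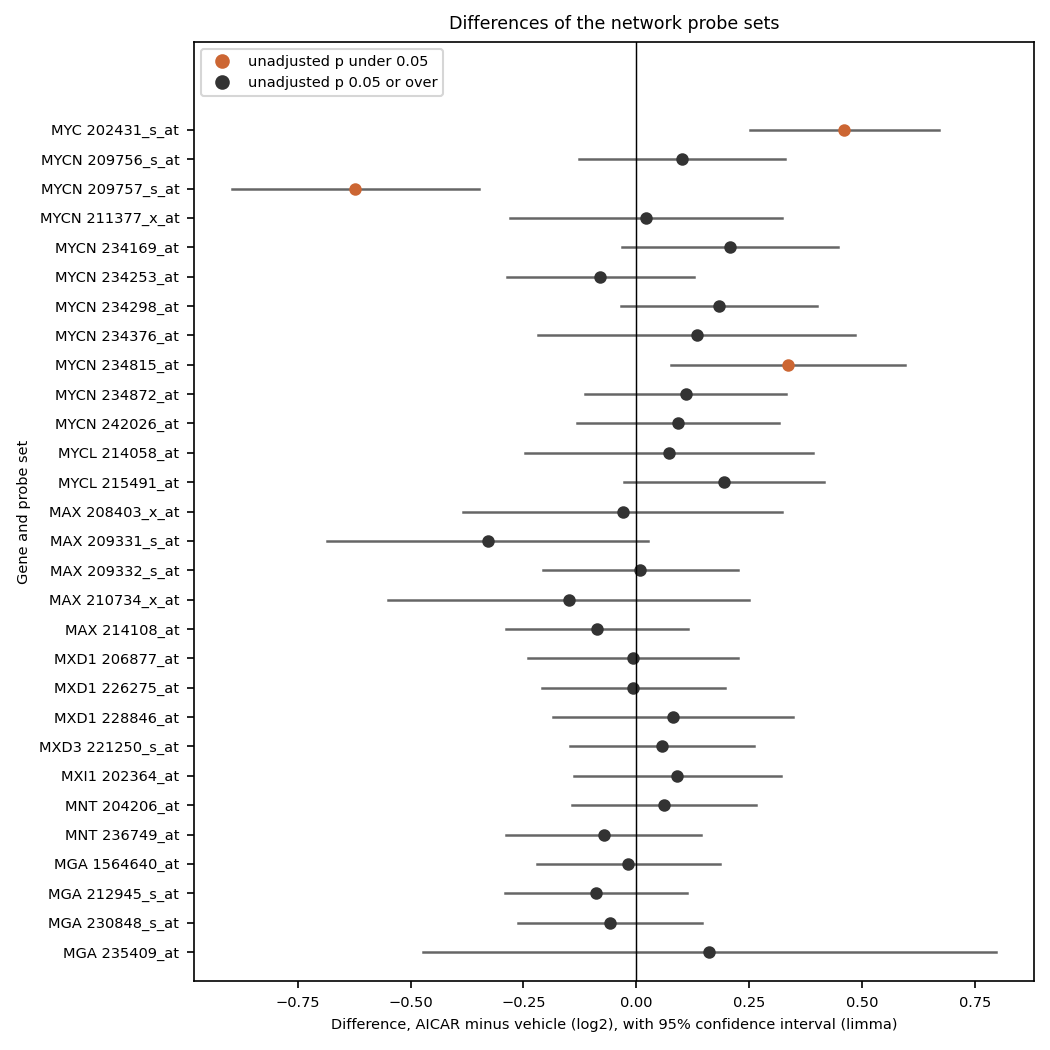
Difference between AICAR and vehicle (log2, x axis) with its 95% confidence interval from limma for each of the 29 probe sets (y axis); orange points have an unadjusted p under 0.05. The intervals of MYC, MYCN 209757_s_at and MYCN 234815_at leave out 0, and the widest interval is that of MGA 235409_at, from -0.47 to 0.80.

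MAX is the partner that the other proteins of the network share, and the MYC proteins bind DNA only together with it. The brightest probe set, 209332_s_at, read 10.81 and 10.83 with vehicle and 10.77 and 10.89 with AICAR. The AICAR pair straddled the vehicle pair, and the difference was 0.0092 (95% confidence interval -0.21 to 0.23, limma adjusted p = 0.975). The dimmest, 214108_at, read 6.01 and 6.02 against 5.95 and 5.91, a difference of -0.09 (-0.29 to 0.11).

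The other 3 MAX probe sets had their lowest value on AICAR replicate 2. At 210734_x_at the vehicle arrays read 8.39 and 8.45 and the AICAR arrays 8.54 and 8.00, and at 208403_x_at they read 7.96 and 8.07 against 8.21 and 7.76. At 209331_s_at the values were 9.11 and 9.18 against 9.05 and 8.59, a difference of -0.33 (95% confidence interval -0.68 to 0.03, limma adjusted p = 0.345). At 209331_s_at both AICAR arrays lay below both vehicle arrays, while at the other 2 probe sets AICAR replicate 1 was the highest of the 4 arrays. The AICAR arrays were 0.54 apart at 210734_x_at, 0.46 at 209331_s_at and 0.45 at 208403_x_at, gaps reached by 0.701%, 1.81% and 2.05% of the table.

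Without AICAR replicate 2 the differences of these 3 probe sets were 0.12, -0.10 and 0.19, so a single array set the sign at 210734_x_at and 208403_x_at. Averaged over 5 probe sets MAX differed by -0.12 (adjusted p = 0.575 in a fit of gene means), while the brightest differed by 0.0092. What AICAR replicate 2 has in particular at these probe sets was not tested.

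MXD1 and MXD3 encode MAX partners that recruit SIN3, and MXD1 is known for taking over from MYC as cells leave the cell cycle. The MXI1 gene, also called MXD2, belongs to the same subfamily. MXI1 read 9.04 and 8.87 with vehicle, and 9.03 and 9.07 with AICAR, which is 0.09 higher (95% confidence interval -0.14 to 0.32, limma adjusted p = 0.708). MXD3 read 8.95 and 9.00 against 9.03 and 9.03, a difference of 0.06 (-0.15 to 0.26, adjusted p = 0.800). For MXD3 the groups did not overlap, yet the difference was the size of the vehicle gap of 0.06, and for MXI1 they overlapped.

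The 3 MXD1 probe sets overlapped between groups as well. Probe set 228846_at read 8.11 and 8.01 with vehicle, and 8.02 and 8.27 with AICAR, and differed by 0.08. Probe sets 226275_at and 206877_at differed by -0.0064 and -0.0071, and the signs of all 3 turned without one array or another. MXD1 thus gave no difference larger than the spread between replicates.

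MNT, the broadly expressed antagonist of MYC that also recruits SIN3, read 9.45 and 9.40 with vehicle and 9.46 and 9.51 with AICAR at 204206_at. The difference was 0.06 (95% confidence interval -0.14 to 0.27, limma adjusted p = 0.783), with the lower AICAR value next to the higher vehicle value. Its second probe set, 236749_at, read 6.90 and 6.95 against 6.91 and 6.79, a difference of -0.07 (-0.29 to 0.14). Over the 7 probe sets of MXD1, MXD3, MXI1 and MNT the intervals lay between -0.29 and 0.35, so changes of 1.41-fold (0.5 on the log2 scale) in either direction fell outside all 7. Changes within the interval of a probe set could not be told from none with 2 arrays a group.

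MGA encodes the largest protein of the network, which carries a T-box besides its helix-loop-helix domain. Probe set 212945_s_at read 8.30 and 8.26 with vehicle, and 8.18 and 8.20 with AICAR, and differed by -0.09 (95% confidence interval -0.29 to 0.11, limma adjusted p = 0.666). Probe set 230848_s_at read 6.59 and 6.61 against 6.57 and 6.51, a difference of -0.06. At both the AICAR arrays lay below the vehicle arrays without passing the test, and 1564640_at, at 3.50 to 3.55 on all arrays, was near the floor.

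The remaining MGA probe set, 235409_at, split the AICAR replicates. It read 6.98 and 6.96 with vehicle, 6.66 on AICAR replicate 1 and 7.61 on AICAR replicate 2. Gaps of that size, 0.95, between the AICAR arrays occurred in 19 probe sets, 0.0348% of the table. The difference of 0.16 (95% confidence interval -0.47 to 0.80, limma adjusted p = 0.819) became -0.31 without AICAR replicate 2 and 0.64 without AICAR replicate 1, so this probe set carries no usable estimate for MGA.

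Over the alternative settings the 2 probe sets nearest to the threshold, MYC 202431_s_at and MYCN 209757_s_at, were the only members ever called. Both passed with the 30th percentile filter, where 3.84% of the probe sets tested were called, and with a filter at the 50th percentile (8.76%). Both also passed with trended, robust variances (7.26%), with single-symbol probe sets only (2.29%) and at an adjusted p under 0.1 (4.38%). With the replicate number as a block, MYCN passed and MYC did not (1.76%). Neither passed after quantile normalization (1.75%) or median centring (1.61%), and none of the 29 did without any 1 array, when at most 0.00183% of the table was called. With 1 brightest probe set for each of 13842 genes, dim genes left out, MYC (adjusted p = 0.0176) and MYCN (0.0209) were called, 2 of 9 member genes against 9.82% of genes. With each gene's probe sets averaged, MYC was called (0.0262) and MYCN was not, against 3.77% of 19775 genes.

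**Figure D3:**
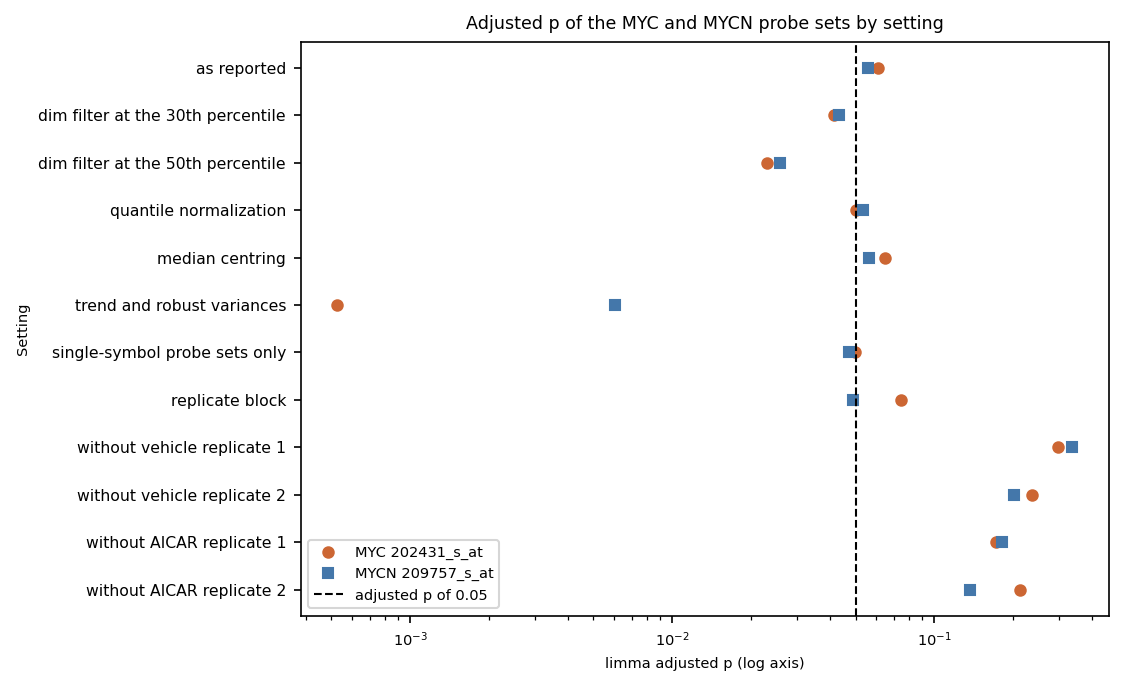
limma adjusted p (x axis, log scale) of MYC 202431_s_at (circles) and MYCN 209757_s_at (squares) under the reported fit and each alternative setting (y axis), with the dashed line at 0.05. The points run from 0.000527 to 0.336 and lie on either side of the line, so the call of both probe sets turns on the setting.

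Genes whose values ran closest to those of a member were ranked by root mean square distance over the 4 arrays after centring each probe set. Nearest to MYC were ZIC2, a zinc finger transcription factor (distance 0.0070, difference 0.46), the antisense RNA IDH1-AS1 (0.0153, difference 0.47) and the ubiquitin ligase TRIM37 (0.0163, difference 0.49). Around MYC 926 of 22920 candidate probe sets lay within 0.1. Nearest to the brightest MAX probe set were SKIC8, SPTLC1 and SYNRG, with 10642 of 22917 within 0.1, and nearest to MXI1 were MYCN 209756_s_at, TMEM41B and NPRL2, with 7895 of 22920. With so many at like distances, these names describe a shape over 4 arrays and set no gene apart.

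The proteins round the network were taken from 10 lists of partners, regulators and targets with 170 genes. Single-symbol probe sets covered 151 of these genes, and of the 397 probe sets 2 were higher and 10 lower with AICAR (limma), in 2 and 8 genes. That is 3.02%, against 1.49% of the whole table. These 10 genes, at the probe set with the largest difference of each, kept their call in the 7 other settings that tested probe sets on 4 arrays at the same threshold, whereas none of them did without any 1 array (adjusted p = 0.0871 to 0.305), when 0 or 1 of all 54613 probe sets passed. Their signs were the same in all those fits.

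Among the repressor partners, RBBP4 fell. It encodes a histone-binding subunit shared by SIN3 and other deacetylase complexes, and its 6 probe sets were without exception negative, with 3 called. At 237333_at it read 8.50 and 8.54 with vehicle and 7.60 and 7.55 with AICAR, a difference of -0.94 (SE 0.0865, limma adjusted p = 0.0136). The other 2 called probe sets differed by -0.55 and -0.52, and the brightest, 210371_s_at, by -0.17. Over the corepressor list, 11 of 14 genes were measured by 31 probe sets. Of these 3 were called lower, all of RBBP4, and 0 higher, which is 9.68% against 1.49% of the whole table. Unadjusted limma p was under 0.05 for 10 lower and 0 higher, against 9.19% lower and 6.92% higher in the table. The list median was -0.10, against 0.01 for all probe sets.

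Among the partners that MGA has in its variant polycomb complex, TFDP1 was called lower at 1 of its 3 probe sets. It encodes the dimerisation partner of E2F proteins, and 242939_at read 7.93 and 7.94 with vehicle and 7.22 and 7.25 with AICAR, a difference of -0.70 (SE 0.0850, limma adjusted p = 0.0227). Each of its 3 probe sets was negative, the smallest difference being -0.25. In this list of 9 measured genes and 21 probe sets, 1 was called lower and 0 higher. That is 4.76%, against 1.49% of the whole table. The list had the lowest median of the 10, -0.19, with 17 of 21 differences negative. At an unadjusted p under 0.05 there were 9 lower and 1 higher, against 9.19% lower and 6.92% higher in the table.

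MLX, MLXIP and MLXIPL form the parallel branch that shares MXD and MNT partners and senses glucose metabolites. Of its 11 probe sets 0 were called, and 0 had an unadjusted p under 0.05 (limma). The largest difference of MLXIP was 0.31, at 1554886_a_at, whose vehicle values of 3.89 and 4.41 were 0.53 apart in their own right, and its lowest was -0.23. MLX differed most at 210752_s_at, by -0.21. None of these exceeded the spread between replicates by the test.

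In the list of MYC cofactors, 47 probe sets of 18 genes were measured. Of these 1 fell and 0 rose, which is 2.13% against 1.49% of the whole table. In all, 26 differences were negative and 21 positive, with a median of -0.01. BPTF, a chromatin remodelling subunit, read 8.04 and 7.94 with vehicle and 7.05 and 7.30 with AICAR at 231953_at, a difference of -0.81 (SE 0.111, limma adjusted p = 0.0283). Only 3 of its 5 probe sets were negative, and the highest differed by 0.06.

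The list on MYC protein turnover holds ubiquitin ligases, deubiquitinases and kinases. Of its 71 probe sets 1 fell and 0 rose, which is 1.41%, near the 1.49% of the whole table. The 1 that fell belonged to SKP2, the F-box protein of a ligase that ubiquitinates MYC and the inhibitor p27. At 210567_s_at SKP2 read 8.06 and 8.11 with vehicle and 7.32 and 7.30 with AICAR, a difference of -0.77 (SE 0.0858, limma adjusted p = 0.0189). Each of its 3 probe sets was negative, the smallest at -0.05. No other gene of the list passed. By unadjusted limma p under 0.05, 12 of the 71 were lower and 1 higher, against 9.19% lower and 6.92% higher in the table.

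**Figure D4:**
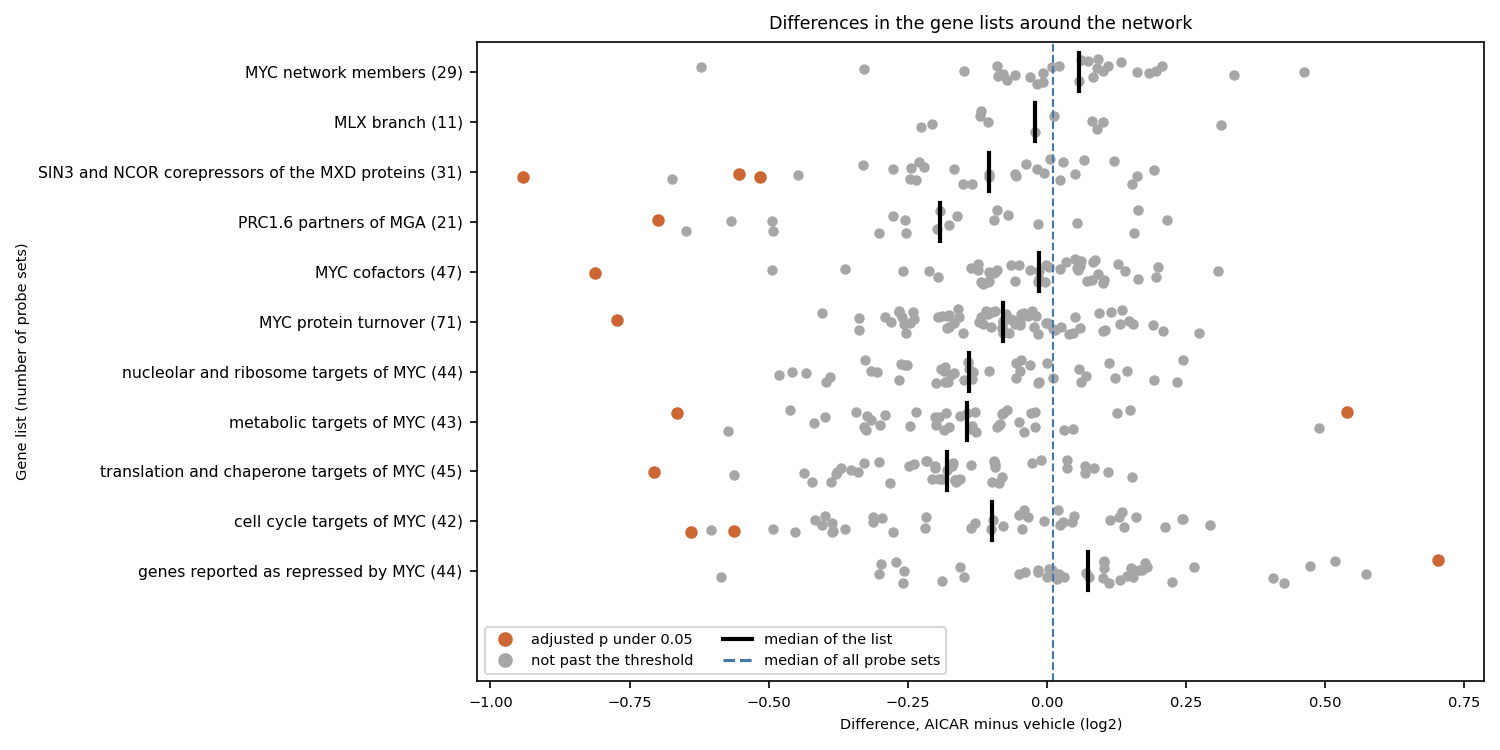
Difference between AICAR and vehicle (log2, x axis) of every probe set in the network and in the 10 lists around it (y axis, number of probe sets in brackets), with called probe sets in orange, list medians as black bars and the median of all probe sets as a dashed line. The medians of the 4 lists of genes that MYC induces lie between -0.18 and -0.10, and that of genes reported as repressed by MYC lies at 0.07. Those of MGA's partners (-0.19), the corepressors (-0.10) and the turnover list (-0.08) are also negative. The vertical scatter within a row has no meaning.

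Genes that MYC is known to induce were split by function. Of 44 probe sets of 19 nucleolar and ribosome genes 0 were called (limma), 33 were negative and the median was -0.14. Before adjustment 10 were lower and 2 higher (limma p under 0.05), against 9.19% lower and 6.92% higher in the table. The largest differences were those of WDR43, a factor of small subunit assembly, which read 9.47 and 9.45 with vehicle and 9.00 and 8.95 with AICAR (difference -0.48, adjusted p = 0.0519), and of MRTO4, which differed by -0.46 (adjusted p = 0.163). WDR43 passed with median centring (0.0476), with either filter on dim probe sets, with single-symbol probe sets only and with trended, robust variances. It did not pass after quantile normalization (0.0621), with the replicate block (0.0610) or without any 1 array (0.160 to 0.304).

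Among metabolic targets 37 of 43 probe sets were negative, with a median of -0.14. Of the 43, 1 was called higher and 1 lower, which is 4.65% against 1.49% of the whole table. An unadjusted limma p under 0.05 was found for 13 lower and 2 higher, against 9.19% lower and 6.92% higher in the table. IMPDH2, of guanine nucleotide synthesis, rose by 0.54 (SE 0.0851, limma adjusted p = 0.0397), and FASN, the fatty acid synthase, fell by 0.66 at 212218_s_at (adjusted p = 0.0277), while the second FASN probe set differed by 0.13. The translation and chaperone list had 38 of 45 negative, a median of -0.18 and 2.22% called. There 15 of the 45 were lower and 0 higher at an unadjusted limma p under 0.05. Its single call was NACA, the nascent chain complex subunit, at 222018_at (-0.71, SE 0.121, adjusted p = 0.0479), whose other 2 probe sets were positive.

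In the list of cell cycle targets 2 of 42 probe sets fell and 0 rose, both in genes of the replicative helicase. That is 4.76%, against 1.49% of the whole table. By unadjusted limma p under 0.05, 17 of the 42 were lower and 3 higher, against 9.19% lower and 6.92% higher in the table. MCM5 read 9.30 and 9.34 with vehicle and 8.78 and 8.58 with AICAR at 216237_s_at (difference -0.64, SE 0.0998, limma adjusted p = 0.0388). MCM7, with the hexamer in 1 of its 3 promoter windows, read 11.36 and 11.38 against 10.86 and 10.76 at 210983_s_at (difference -0.56, SE 0.0884, adjusted p = 0.0393). Both genes had a second probe set, also negative, and the list median was -0.10.

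Genes reported as repressed by MYC were the list with a positive median, 0.07, and 31 of 44 probe sets positive. CCNG2, a cyclin associated with cell cycle arrest and another gene with the hexamer, rose: 228081_at read 8.59 and 8.60 with vehicle and 9.26 and 9.33 with AICAR, a difference of 0.70 (SE 0.0866, limma adjusted p = 0.0233). Each of its 5 probe sets was positive, with 1 called and the smallest difference at 0.14. In the list 1 of 44 probe sets was called higher and 0 lower, which is 2.27% against 1.49% of the whole table. Before adjustment, 8 of the 44 probe sets lay higher and 5 lower (limma p under 0.05), against 6.92% higher and 9.19% lower in the table.

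The medians of the 4 induced lists stayed negative and that of the repressed list positive in the 8 settings that alter the differences, namely both dim filters, quantile normalization, median centring and leaving out each array. The median of the cofactor list turned to 0.01 after quantile normalization and to 0.0040 without AICAR replicate 1. Negative medians were not particular to the induced lists. Those of MGA's partners (-0.19 as reported), the corepressors (-0.10), the turnover list (-0.08) and the MLX branch (-0.02) were also negative in all 8. The values of the MYC probe set, the only reading of its gene here, stood higher with AICAR. Those of most probe sets of its induced targets stood lower. That is a description of both, since MYC did not pass the test and no test of the lists was made.

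The arrays had similar distributions, with medians of 6.37 to 6.39 (log2), and all pairs of arrays correlated at r = 0.994 to 0.997 over probe sets, which are not independent replicates. The 12 luminal breast markers read between 8.72 and 14.69 at their brightest probe sets, all above the middle of the table. Of their 33 probe sets 0 were called (limma). Before adjustment 2 were higher and 4 lower (limma p under 0.05), against 6.92% higher and 9.19% lower in the table. The luminal probe sets with the largest differences were ERBB2 234354_x_at, which read 7.96 and 7.86 with vehicle and 8.27 and 8.49 with AICAR (difference 0.47, adjusted p = 0.0881), and MUC1 213693_s_at, which read 9.30 and 9.20 against 8.85 and 8.72 (difference -0.47, adjusted p = 0.0701). The brightest ERBB2 probe set differed by 0.05. Both ERBB2 234354_x_at (0.0148) and MUC1 (0.00519) passed with trended, robust variances and with the 50th percentile filter, and MUC1 also with the 30th percentile filter.

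Of 15 stromal, endothelial and blood cell markers 9 lay below the middle of the table at their brightest probe sets. By limma 0 of 49 probe sets were called. Before adjustment 4 were higher and 3 lower (limma p under 0.05), against 6.92% higher and 9.19% lower in the table. The brightest was COL1A1, which read 9.95 and 10.08 with vehicle and 9.25 and 9.52 with AICAR (difference -0.63, adjusted p = 0.0549). COL1A1 passed with both dim filters, with single-symbol probe sets only (0.0470), with the replicate block (0.0309) and with trended, robust variances (0.00166). The other large difference was that of PDGFRA 211533_at, which read 3.78 and 3.63 against 4.11 and 4.01, near the floor of the array (difference 0.35, adjusted p = 0.142). The part of these markers in the differences of the lists was not tested.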

How the data were processed

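The authors summarized and normalized the arrays with Affymetrix Expression Console, per the submitters' processing notes, and deposited 1 log2 value for each probe set and array. The algorithm and its background correction were not given in the sources used here, and a dim probe set can therefore understate a change. The 62 control probe sets were left out, which left 54613. Of these, 41091 carry 1 gene symbol, 1801 several and 11721 none listed; 41037 symbols were updated through Entrez IDs with the RefSeq table of GRCh38.p14. The number of arrays limits the precision, with a standard error of 0.0980 for the median probe set.

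Differences, AICAR minus vehicle, were fitted on all 54613 probe sets with no filter on dim ones, by limma 3.58.1 in R 4.3.3 (lmFit, then eBayes), and p-values were adjusted by Benjamini-Hochberg over all of them. The fit was tested on simulated data. Every member gene is named; from each other list up to 4 called genes with the largest difference are named, or 2 where none was called, and 3 genes nearest to MYC, MAX and MXI1. The members and lists were chosen with earlier results of these data known. Alternatives were filters on dim probe sets, quantile normalization, median centring, trended and robust variances, single-symbol probe sets only, an adjusted p under 0.1, a replicate block, each array left out, and gene-level values. Promoter windows came from RefSeq tables of GRCh38.p14, for 9 of the 10 member genes, all but MYC.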

Additional observations from a re-analysis of the deposited data

How the results depend on the processing

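With 2 arrays a group, the number of calls moved with every change in the variance model or in the probe sets tested, and single calls near the threshold should be read with that in mind. Counts are given as higher and lower. Over the whole table they were 327 and 485 as reported, 545 and 924 with the 30th percentile filter, 886 and 1506 with the 50th percentile filter, 1441 and 2524 with trended, robust variances, and 897 and 1493 at an adjusted p under 0.1. In the network they were 0 and 0 as reported and 1 and 1 (MYC and MYCN 209757_s_at) in those 4 settings and with single-symbol probe sets only. In the lists around it they were 2 and 10 as reported, 5 and 19, 6 and 33, 7 and 73 and 5 and 32 in the same 4 settings, 5 and 17 with single-symbol probe sets only, and 5 higher after quantile normalization. Without any 1 array the table had 0 to 1 higher and 0 lower, and the network and the lists had 0 and 0.

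Over probe sets, the deviations of same-numbered arrays from their group means correlated at r = -0.07. Probe sets are not independent replicates, so this value cannot decide whether the numbers pair the samples. With the replicate block the network had 0 higher and 1 lower, MYCN 209757_s_at (adjusted p = 0.0491), while MYC had an adjusted p of 0.0744 and over all probe sets 379 were higher and 581 lower.

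None of the 10 called probe sets named in the lists changed sign. MYCN, called at -0.62 with its brightest probe set and dim genes left out, was 0.048 as the mean of its probe sets, whose differences have mixed signs. The other changes of sign were as follows, and the cause was not tested. MAX 208403_x_at was 0.0038 after quantile normalization, MAX 209332_s_at was -0.0031 after median centring, and as the mean of all probe sets MAX was -0.12 and MNT -0.0054. Without any 1 array the ranges that crossed 0 were -0.14 to 0.18 at MYCN 211377_x_at, -0.078 to 0.35 at MYCN 234376_at, -0.12 to 0.27 at MYCL 214058_at, -0.25 to 0.19 at MAX 208403_x_at, -0.055 to 0.073 at MAX 209332_s_at, -0.42 to 0.12 at MAX 210734_x_at, -0.085 to 0.071 at MXD1 206877_at, -0.032 to 0.019 at MXD1 226275_at, -0.046 to 0.21 at MXD1 228846_at, -0.038 to 0.0024 at MGA 1564640_at and -0.31 to 0.64 at MGA 235409_at.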
